A study of Homo sapiens with 8 samples.

Results

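The zinc-dependent histone deacetylases (HDACs) are the enzyme family that vorinostat is directed against, though inhibition of each member was not measured here. The transcripts of 10 of their genes were followed in BT-549 cells, an established cell line of triple-negative breast cancer (TNBC). The genes were picked by symbol: HDAC1, HDAC2, HDAC3 and HDAC8 of class I, HDAC4, HDAC5, HDAC7 and HDAC9 of class IIa, HDAC6 of class IIb and HDAC11 of class IV. They are 10 of the 23228 genes listed by symbol, and all 10 were among the 13694 genes that passed a filter on low counts and were tested. The 10 genes do not take in every zinc-dependent HDAC. The study asked whether EC359, an inhibitor of the leukemia inhibitory factor receptor (LIFR), adds to the action of HDAC inhibitors on TNBC cells. RNA was sequenced from cells treated for 24 h with vehicle, with EC359 at 100 nM, with vorinostat at 10 µM, or with EC359 and vorinostat together at those doses (the combination). Each group held 2 libraries, numbered 1 and 2, and all groups were the same cell line at a single dose and time. The study describes its in vitro assays in general as biologically replicated, but the labels do not tie the libraries to separate cultures, so the p-values measure only the spread between these libraries, which may be technical.

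HDACs remove acetyl groups from lysines of histones and other proteins, and thereby oppose the lysine acetyltransferases. The class I enzymes are mostly nuclear and, HDAC8 apart, work as the catalytic subunits of corepressor complexes. The class IIa enzymes have little deacetylase activity of their own, carry a long amino-terminal part that binds MEF2 transcription factors, and move between nucleus and cytoplasm under the control of kinases and 14-3-3 proteins. HDAC6 is largely cytoplasmic and acts on tubulin and cortactin, and HDAC11 is the lone class IV enzyme.

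Between 19069450 and 24759041 reads per library were counted on genes. The libraries of a group differed least in vorinostat and most in EC359, with an SD of the log2 difference across genes of 0.312 and 0.563. The 6 mesenchymal markers typical of this line summed to between 7660 and 15400 CPM in every library (CPM are read counts scaled to a common library size). The 8 epithelial and luminal markers summed to between 16.2 and 106 CPM, most of it ERBB2 in vehicle (99.1 ± 4.18 CPM, SD, n = 2), while PGR was at 0 in every library of 3 groups. The 7 markers of blood, endothelial and liver cells summed to between 0.254 and 4.21 CPM.

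The sequences just upstream of the transcription starts are shown for HDAC1 and HDAC3, which rose under vorinostat, and for HDAC7 and HDAC9, which fell. They are the 250 bases before the start in RefSeq on GRCh38.p14, written 5′ to 3′ on the strand of the gene. Capitals mark the GC box (GGGCGG, or CCGCCC on the other strand), the CCAAT box (CCAAT or ATTGG) and the TATA box (TATAAA or TTTATA), and matches to the same motif were allowed to overlap. Entries were found for 9 of the 10 genes, and HDAC5 was not among them. HDAC9 has 5 starts in the table, and 1 of each kind is shown, since the counts per gene do not tell which start was used.
HDAC1, chr1:32291833-32292082, + strand: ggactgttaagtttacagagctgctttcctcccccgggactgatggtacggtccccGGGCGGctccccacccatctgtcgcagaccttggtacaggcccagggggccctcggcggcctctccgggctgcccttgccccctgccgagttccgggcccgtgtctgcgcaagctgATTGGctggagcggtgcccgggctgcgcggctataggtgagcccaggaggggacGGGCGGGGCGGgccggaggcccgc
HDAC3, chr5:141636850-141637099, - strand: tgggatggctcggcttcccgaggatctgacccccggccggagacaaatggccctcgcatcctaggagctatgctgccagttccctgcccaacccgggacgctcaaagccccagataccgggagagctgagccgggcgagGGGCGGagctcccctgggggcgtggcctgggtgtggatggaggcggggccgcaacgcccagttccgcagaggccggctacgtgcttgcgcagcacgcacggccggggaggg
HDAC7, chr12:47819904-47820153, - strand: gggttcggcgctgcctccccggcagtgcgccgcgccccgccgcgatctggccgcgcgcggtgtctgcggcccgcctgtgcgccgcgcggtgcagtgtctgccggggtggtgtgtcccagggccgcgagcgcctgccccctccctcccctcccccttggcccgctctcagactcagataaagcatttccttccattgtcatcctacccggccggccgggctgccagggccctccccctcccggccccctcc
HDAC9 upstream start, chr7:18086575-18086824, + strand: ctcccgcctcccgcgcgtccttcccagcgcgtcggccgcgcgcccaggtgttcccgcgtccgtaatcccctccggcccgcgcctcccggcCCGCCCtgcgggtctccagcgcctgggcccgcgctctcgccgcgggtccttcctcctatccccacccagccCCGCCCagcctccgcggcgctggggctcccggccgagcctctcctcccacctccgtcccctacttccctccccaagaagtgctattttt
HDAC9 downstream start, chr7:18495460-18495709, + strand: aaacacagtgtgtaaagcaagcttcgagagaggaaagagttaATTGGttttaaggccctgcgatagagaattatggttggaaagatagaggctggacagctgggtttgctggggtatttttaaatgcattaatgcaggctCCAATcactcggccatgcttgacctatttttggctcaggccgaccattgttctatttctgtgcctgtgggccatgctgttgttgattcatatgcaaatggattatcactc

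The HDAC7 window had a GC content of 75.6% and 28 CpG dinucleotides, and held none of the 3 motifs. The HDAC3 window was of similar make-up, with 70.8% GC, 22 CpG and 1 GC box, and the HDAC1 window had 71.6% GC, 21 CpG, 3 GC boxes and 1 CCAAT box. Over all 35116 promoter windows of the same length the median GC content was 58.0% with 11 CpG. A GC box occurred in 42.6% of those windows, a CCAAT box in 32.0% and a TATA box in 10.7%. The starts of HDAC9 were of unlike kinds. The upstream window had 75.2% GC, 32 CpG and 2 GC boxes, whereas the downstream one had 44% GC, 4 CpG and 2 CCAAT boxes. GC-rich windows were thus found both before genes that rose and before genes that fell.

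HDAC1 was the most abundant of the 10 transcripts per unit of length in every group, followed by HDAC3 and then HDAC2. In vehicle the levels were 44 ± 0.311 RPKM (CPM per kilobase of gene length, SD, n = 2) for HDAC1, 15.4 ± 0.915 for HDAC3 and 12.8 ± 0.336 for HDAC2, with the union of all annotated exons as the length. The order of these 3 genes was the same with the longest transcript or the MANE Select transcript as the length. In EC359 the levels of HDAC3 (15.5 ± 0.661 RPKM) and HDAC2 (14.8 ± 2.21 RPKM) did not differ beyond their spread. The next in vehicle were HDAC7 at 6.42 ± 0.0993 RPKM and HDAC11 at 5.37 ± 0.531 RPKM, then HDAC6 at 3.64 ± 0.0661 and HDAC5 at 1.96 ± 0.234 RPKM. HDAC8, HDAC4 and HDAC9 closed the order at 1.31 ± 0.033, 1.06 ± 0.0225 and 1.03 ± 0.025 RPKM, the last 2 within their spread. With MANE Select lengths 4 of the 10 genes kept their place in vehicle, and HDAC6 (12.8 ± 0.232 RPKM) stood above HDAC11 (9.96 ± 0.986). HDAC9 (1.8 ± 0.0436 RPKM) and HDAC4 (1.78 ± 0.0378) were again within their spread. The place of HDAC8 moved most, since its exons join to 22888 bases but its MANE Select transcript has 1754. With the latter it ranked 4 of 10 in vehicle (17.1 ± 0.43 RPKM) and not 8.

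Vorinostat against vehicle shows how the transcripts of this enzyme family differed under the inhibitor. HDAC1, HDAC3 and HDAC5 rose, HDAC7 and HDAC9 fell, and the other 5 genes did not pass the test. HDAC7 fell 19.2-fold and was the most changed of the 10. A gene was counted as past the test at an adjusted p under 0.01 in edgeR's quasi-likelihood test, and as called when its absolute log2 fold change was also over 1. Of all tested genes 26.2% passed as higher, 25.9% as lower, and 30.1% were called, beside 3, 2 and 4 of the 10 HDAC genes. The share of members changed was therefore near that of all genes, and the median log2 fold change was 0.11 for the members and 0.03 for all genes. In a bulk sample fewer cells that carry a transcript and less of it per cell cannot be told apart.

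**Figure D1:**
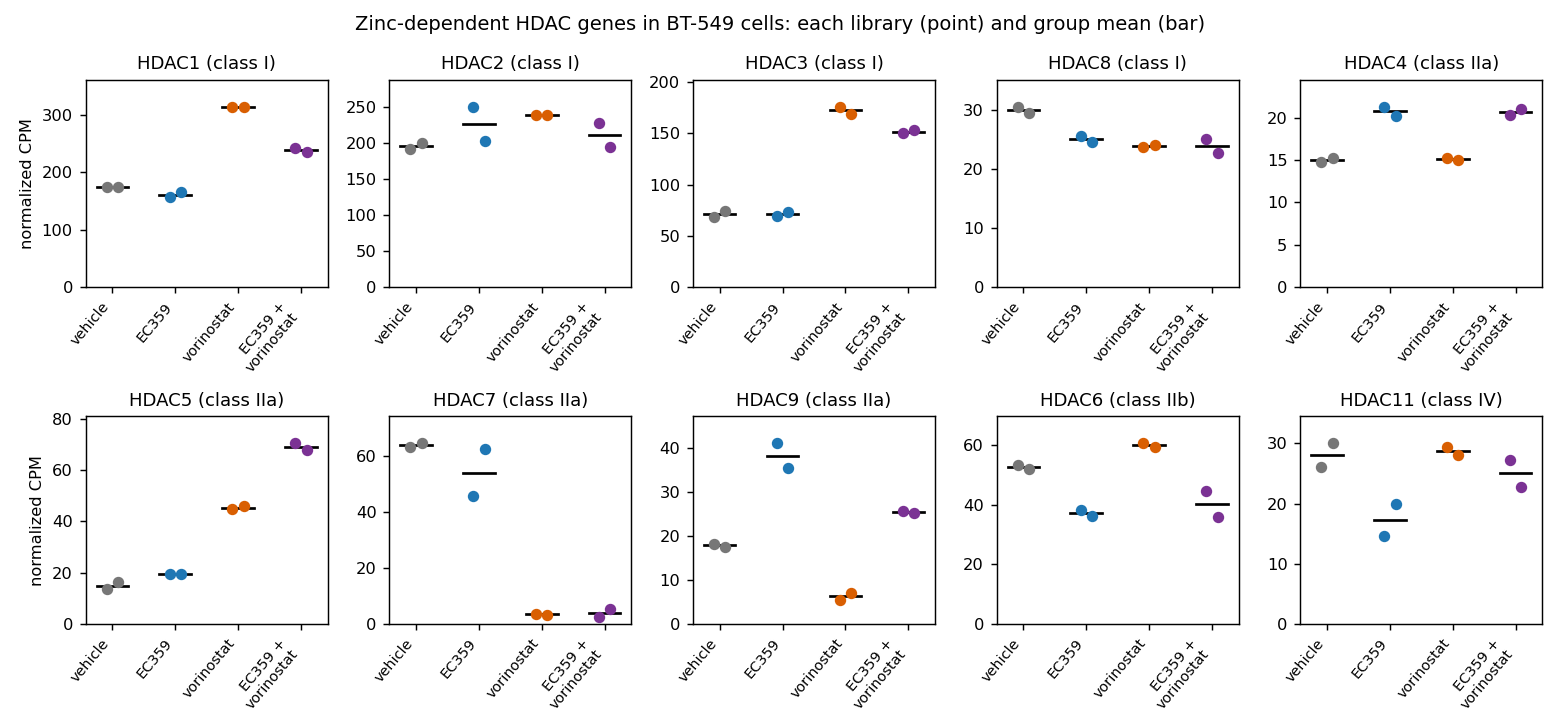
Normalized CPM of the 10 HDAC genes (vertical axes, each starting at 0) in the 4 treatment groups, with a point for each library and a bar at the group mean. HDAC7 lies between 2.46 and 5.11 CPM in the 4 libraries with vorinostat and between 45.7 and 64.5 CPM in the 4 without it, while HDAC3 and HDAC5 are higher with vorinostat than without it in every library.

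Among the class I genes, HDAC3, the catalytic subunit of the NCOR and SMRT corepressor complex, showed the largest change. Its level was 68.2 and 74.1 CPM in the vehicle libraries, 69.4 and 73.7 in EC359, 176 and 169 in vorinostat, and 150 and 153 in the combination. The libraries with and without vorinostat did not overlap, and those of vehicle and EC359 did. Between 2 groups of 2 libraries a lack of overlap can easily arise by chance, and its share over all genes was not computed. HDAC3 rose 2.43-fold in vorinostat (log2 fold change 1.28 ± 0.09, SE, adjusted p = 3.5e-06). HDAC1, which serves the NuRD, SIN3 and CoREST complexes together with HDAC2, was at 175 and 174 CPM in vehicle and 157 and 165 CPM in EC359. It reached 314 CPM in both vorinostat libraries and 242 and 236 CPM in the combination. HDAC1 rose 1.8-fold in vorinostat (0.85 ± 0.08, adjusted p = 1.9e-05), below the fold needed for a call. Annotated processed copies of HDAC1 exist elsewhere in the genome, and reads that match a copy equally well may be missing from its count.

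HDAC2, the close relative of HDAC1, did not pass the test in vorinostat. Its levels were 192 and 200 CPM in vehicle, 251 and 204 in EC359, 239 and 240 in vorinostat, and 228 and 195 in the combination. The vorinostat libraries lay above both vehicle libraries, by a log2 fold change of 0.29 (95% interval 0.02 to 0.56, adjusted p = 0.057). It passed when either EC359 library was left out (0.28, adjusted p = 0.005 without EC359 library 1). HDAC8, a class I enzyme that deacetylates the SMC3 subunit of cohesin, was at 30.5 and 29.4 CPM in vehicle, 25.6 and 24.5 in EC359, 23.7 and 24.1 in vorinostat, and 25.1 and 22.6 in the combination. Both vorinostat libraries were below both vehicle libraries, but the log2 fold change of -0.33 (interval -0.59 to -0.06) had an adjusted p of 0.032. HDAC8 likewise passed without EC359 library 1 (-0.34, adjusted p = 0.0086) and without EC359 library 2 (-0.33, adjusted p = 0.0089).

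HDAC7, a class IIa enzyme known from endothelial and lymphoid cells, was the HDAC gene with the largest fall. It was at 63.1 and 64.5 CPM in vehicle and at 45.7 and 62.5 CPM in EC359. It was at 3.6 and 3.06 CPM in vorinostat and at 2.46 and 5.11 CPM in the combination. These levels rest on 1336 and 1380 reads in vehicle, 70 and 72 in vorinostat, and 48 and 100 in the combination. The libraries with vorinostat were all far below those without it, and the EC359 libraries differed from each other more than the vehicle libraries did. The log2 fold change was -4.26 ± 0.29 in vorinostat (interval -4.91 to -3.61, adjusted p = 2.6e-06), and it stayed between -4.38 and -4.16 under all 17 alternatives run. HDAC7 lies at chr12:48176505-48226915 on the - strand of GRCh37. The genes on either side did not share its fall. SLC48A1, which runs on the other strand and overlaps its exons by 30 bases, rose (log2 fold change 1.63, adjusted p = 3.1e-05), as did VDR, the vitamin D receptor (1.86, adjusted p = 8.4e-05). RAPGEF3 and TMEM106C did not pass the test (0.38 and -0.35).

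HDAC5 moved the other way. This class IIa enzyme, an export-regulated MEF2 corepressor, was at 13.6 and 16.2 CPM in vehicle, 19.4 and 19.5 in EC359, 44.7 and 45.9 in vorinostat, and 70.4 and 67.8 in the combination. No 2 groups overlapped. HDAC5 rose 3.04-fold in vorinostat (log2 fold change 1.6 ± 0.12, adjusted p = 4.1e-06). It lies at chr17:42154114-42201070, and 24.0% of its exon bases overlap G6PC3 on the other strand. Without a stated strand setting, reads in the overlap cannot be assigned, and G6PC3 itself did not pass the test (-0.07, adjusted p = 0.57).

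HDAC9, whose gene at chr7:18126572-19042039 is the longest of the 10, also makes truncated products without the deacetylase part. It was at 18.1 and 17.5 CPM in vehicle, 41 and 35.4 in EC359, 5.4 and 7.06 in vorinostat, and 25.7 and 25.2 in the combination. No 2 groups overlapped, and the order from low to high was vorinostat, vehicle, combination, EC359. HDAC9 fell 2.84-fold in vorinostat (-1.51 ± 0.16, adjusted p = 3.8e-05). HDAC4, the remaining class IIa gene, was at 14.8 and 15.3 CPM in vehicle, 21.3 and 20.2 in EC359, 15.2 and 15 in vorinostat, and 20.3 and 21 in the combination. Its vehicle and vorinostat libraries overlapped, with a log2 fold change of 0.00 (interval -0.27 to 0.28), while both groups with EC359 lay higher. The vorinostat calls of HDAC3, HDAC5, HDAC7 and HDAC9, and the rise of HDAC1 past the test, were kept in each of the 17 alternatives, including without each library in turn.

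HDAC6, the tubulin deacetylase, was at 53.3 and 51.9 CPM in vehicle, 38.1 and 36 in EC359, 60.5 and 59.3 in vorinostat, and 44.5 and 35.9 in the combination. Both groups with EC359 lay below both groups without it. The log2 fold change in vorinostat was 0.19 (interval -0.08 to 0.45, adjusted p = 0.19). HDAC11 was at 26.1 and 30 CPM in vehicle, 14.6 and 19.9 in EC359, 29.4 and 28.1 in vorinostat, and 27.3 and 22.8 in the combination. The EC359 libraries were the lowest, and vehicle and vorinostat overlapped (0.04, interval -0.35 to 0.42). The promoter window of HDAC11 held 5 GC boxes, the highest number among the 19 windows of the HDAC genes.

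**Figure D2:**
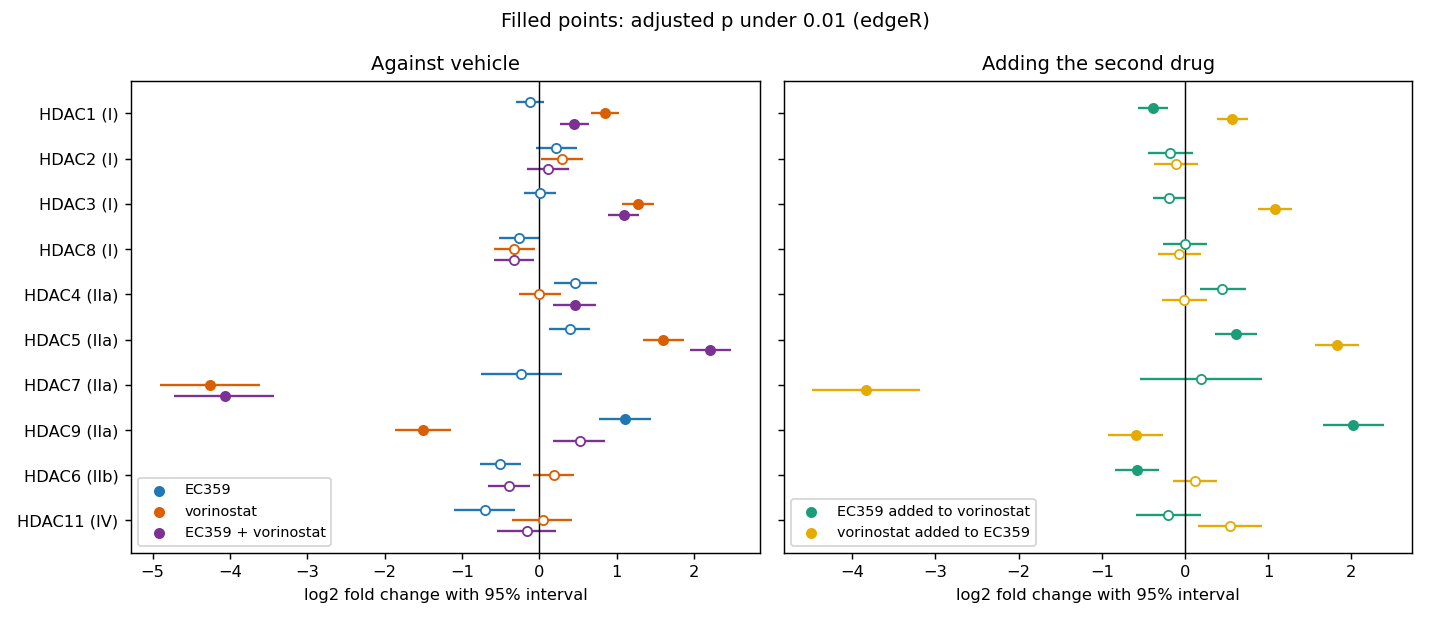
Log2 fold change (horizontal axis) of each HDAC gene (rows, with class) with its 95% interval, for the comparisons with vehicle on the left and for the addition of the other drug on the right; filled points passed an adjusted p under 0.01. HDAC7 stands apart at -4.26 in vorinostat and -4.07 in the combination, and HDAC9 passed the test with opposite signs in EC359 (1.10) and vorinostat (-1.51).

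EC359 alone left most of the family without a change that passed the test. HDAC9 was the 1 member past the test and called, beside 3.81% of all genes passing as higher, 4.01% as lower and 3.67% called. It rose 2.15-fold (log2 fold change 1.10 ± 0.15, adjusted p = 0.0011). Left without vehicle library 1 or 2, the rise kept its size (1.14 and 1.09) but had adjusted p-values of 0.018 and 0.022, and without EC359 library 1 it passed the test (1.00, adjusted p = 0.00022) but not the fold needed for a call. The EC359 and vehicle libraries overlapped for HDAC3 only, so a lack of overlap did not set any of the other genes apart. HDAC6 and HDAC11 lay lower in EC359, with log2 fold changes of -0.51 ± 0.12 (adjusted p = 0.02) and -0.71 ± 0.17 (adjusted p = 0.024). HDAC4 lay higher (0.46 ± 0.12, adjusted p = 0.03), and so did HDAC5 (0.39 ± 0.12, adjusted p = 0.056). None of these 4 passed at 0.01, though HDAC6 did without EC359 library 1 (-0.54, adjusted p = 0.0087), and HDAC4 (0.51, adjusted p = 0.0075) and HDAC11 (-0.94, adjusted p = 0.00034) did without EC359 library 2. HDAC2 also passed without that library (0.37, adjusted p = 0.0059). The intervals of HDAC1 (-0.30 to 0.06), HDAC3 (-0.20 to 0.21), HDAC7 (-0.76 to 0.29) and HDAC8 (-0.52 to 0.00) included 0. The median over the 10 genes was -0.06, and -0.02 over all genes.

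In the combination against vehicle, HDAC1, HDAC3, HDAC4 and HDAC5 rose and HDAC7 fell. These are 4 higher and 1 lower of 10, and HDAC3, HDAC5 and HDAC7 were called. Over all genes 29.7% passed as higher, 26.7% as lower and 34.8% were called, and the median log2 fold change was 0.28 for the members and 0.07 for all genes. The all-gene split was 4068 higher to 3650 lower, but 3756 to 4001 with total-count scaling, and 4031 to 3818 in DESeq2. HDAC5 rose 4.63-fold (2.21 ± 0.12, adjusted p = 5.3e-07), HDAC3 rose 2.13-fold (1.09 ± 0.09, adjusted p = 6.7e-06) and HDAC7 fell 16.8-fold (-4.07 ± 0.28, adjusted p = 2.3e-06). HDAC1 rose 1.37-fold (0.45 ± 0.08, adjusted p = 8e-04). The rise of HDAC1 did not pass without vehicle library 1, vehicle library 2 or combination library 1 (adjusted p = 0.011, 0.013 and 0.013). The rise of HDAC4 (0.46 ± 0.12, adjusted p = 0.008) was lost in 11 of the 17 alternatives, among them leaving out any library of vehicle, vorinostat or the combination (adjusted p between 0.034 and 0.059). HDAC9 lay 1.43-fold above vehicle, at an adjusted p of 0.012. HDAC9 (0.51, adjusted p = 0.0018), HDAC6 (-0.40, adjusted p = 0.0029) and HDAC8 (-0.34, adjusted p = 0.0083) passed without EC359 library 1, and likewise without EC359 library 2. HDAC6 also did without combination library 1 (-0.60, adjusted p = 0.0039).

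Against vorinostat alone, the combination shows what EC359 added. HDAC5 and HDAC9 rose and HDAC1 and HDAC6 fell. These 2 higher and 2 lower members, of which 1 was called, stand beside 8.45% of all genes higher, 5.26% lower and 4.25% called. With total gene counts in place of TMM scaling the all-gene split was 929 higher to 1054 lower and in DESeq2 it was 1377 to 1338, against 1157 to 720. HDAC9 rose 4.07-fold (log2 fold change 2.02 ± 0.16, adjusted p = 4.7e-05) and kept its call in each of the 17 alternatives. HDAC5 rose 1.52-fold (0.61 ± 0.11, adjusted p = 0.0042), HDAC1 fell 1.31-fold (-0.39 ± 0.08, adjusted p = 0.007) and HDAC6 fell 1.49-fold (-0.58 ± 0.12, adjusted p = 0.0074). These smaller changes kept their direction over the 17 alternatives. The log2 fold changes ran from 0.52 to 0.61 for HDAC5, -0.48 to -0.39 for HDAC1 and -0.78 to -0.47 for HDAC6. Not all of them passed with a library left out, which also leaves fewer libraries to estimate the spread. HDAC5 did not pass when any 1 library of vorinostat or the combination was left out (adjusted p between 0.034 and 0.078), nor did HDAC1 when any 1 library of vehicle, vorinostat or the combination was (0.022 to 0.058). HDAC6 did not pass without vehicle library 1 or 2 (0.02 for each), vorinostat library 1 or 2 (0.055 and 0.047) or combination library 2 (0.037). HDAC7 stayed low, with a log2 difference of 0.19 whose interval ran from -0.54 to 0.92, and the difference was -0.48 without combination library 2. HDAC4 lay 1.37-fold above vorinostat alone (adjusted p = 0.023), and it passed without EC359 library 1 or 2 (adjusted p = 0.0043 and 0.0045). The members' median was -0.09 and that of all genes -0.01.

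Against EC359 alone, the combination shows what vorinostat added. The groups compared share no library with vorinostat against vehicle, but both tests use the same estimate of spread from all 8 libraries. HDAC1, HDAC3 and HDAC5 rose and HDAC7 and HDAC9 fell, as they did there. These were 3 higher and 2 lower of 10 with 3 called, beside 29.5%, 26.3% and 33.7% of all genes. The all-gene split was 4040 higher to 3602 lower, but 3758 to 3887 with total-count scaling, and 3918 to 3839 in DESeq2. HDAC7 fell 14.3-fold (-3.84 ± 0.28, adjusted p = 3.7e-06). HDAC5 rose 3.55-fold (1.83 ± 0.12, adjusted p = 1.5e-06), HDAC3 2.12-fold (1.08 ± 0.09, adjusted p = 7.8e-06) and HDAC1 1.49-fold (0.57 ± 0.08, adjusted p = 0.00019). HDAC9 fell 1.5-fold (-0.59 ± 0.15, adjusted p = 0.0057). The fall of HDAC9 did not pass in 6 of the 17 alternatives. Among them were a filter of 1 CPM in all 8 libraries (-0.50, adjusted p = 0.013) and only the 2 groups compared (-0.63, adjusted p = 0.012). The others left out vehicle library 1 or 2 (-0.60 for each) or combination library 1 or 2 (-0.67 and -0.64). HDAC11 lay 1.46-fold higher (adjusted p = 0.02) and passed without EC359 library 2 (0.77, adjusted p = 0.00053). The median was 0.05 for the members and 0.06 for all genes.

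The interaction asks whether the effect of EC359 differed between cells with and without vorinostat. None of the 10 genes passed it in edgeR at an adjusted p under 0.01 or in DESeq2. Of all genes 1.62% passed as higher and 0.482% as lower (222 to 66, and 429 to 256 in DESeq2). HDAC9 came nearest. EC359 raised it 2.15-fold without vorinostat and 4.07-fold with it, an interaction of 0.92 ± 0.22 on the log2 scale (interval 0.43 to 1.41, adjusted p = 0.038). It passed without EC359 library 1 (1.02, adjusted p = 0.0033), and HDAC2 passed without EC359 library 2 (-0.55, adjusted p = 0.0061, against -0.39 and 0.21 with all libraries). HDAC1 had an interaction of -0.27 (adjusted p = 0.19). The members' median was 0.11, and 0.02 over all genes.

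The changes altered the make-up of class IIa more than that of class I. In vehicle HDAC7 made up 61.4% ± 0.99 (SD, n = 2) of the summed class IIa RPKM and HDAC5 18.7% ± 1.64. In vorinostat HDAC7 made up 4.36% ± 0.574 and HDAC5 77.2% ± 0.124, so that the leading class IIa transcript was another gene. The combination was similar, with 3.08% ± 1.54 for HDAC7 and 73.3% ± 1.74 for HDAC5. HDAC7 held 1.99% there without combination library 2. In EC359 HDAC7 still led with 46.4% ± 6.57, and HDAC9 held 19.1% ± 3.48 against 9.83% ± 0.549 in vehicle, which put its mean above that of HDAC4. With MANE Select lengths HDAC7 made up 70.4% in vehicle, 6.75% in vorinostat and 4.74% in the combination, and HDAC5 13.0%, 72.7% and 68.7%. In class I, HDAC1 remained the leading transcript, with 59.8% ± 1.16 in vehicle and 59.4% ± 0.439 in vorinostat. The share of HDAC3 was 21.0% ± 0.986 in vehicle and 28.1% ± 0.572 in vorinostat. Summed over the 10 genes the level was 93.0 ± 1.7 RPKM in vehicle, 89.5 ± 1.39 in EC359, 151 ± 1.09 in vorinostat and 128 ± 3.5 in the combination. Class I held 79.1% ± 0.473 of it in vehicle and 88.5% ± 0.0159 in vorinostat. Shares and sums were not tested.

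**Figure D3:**
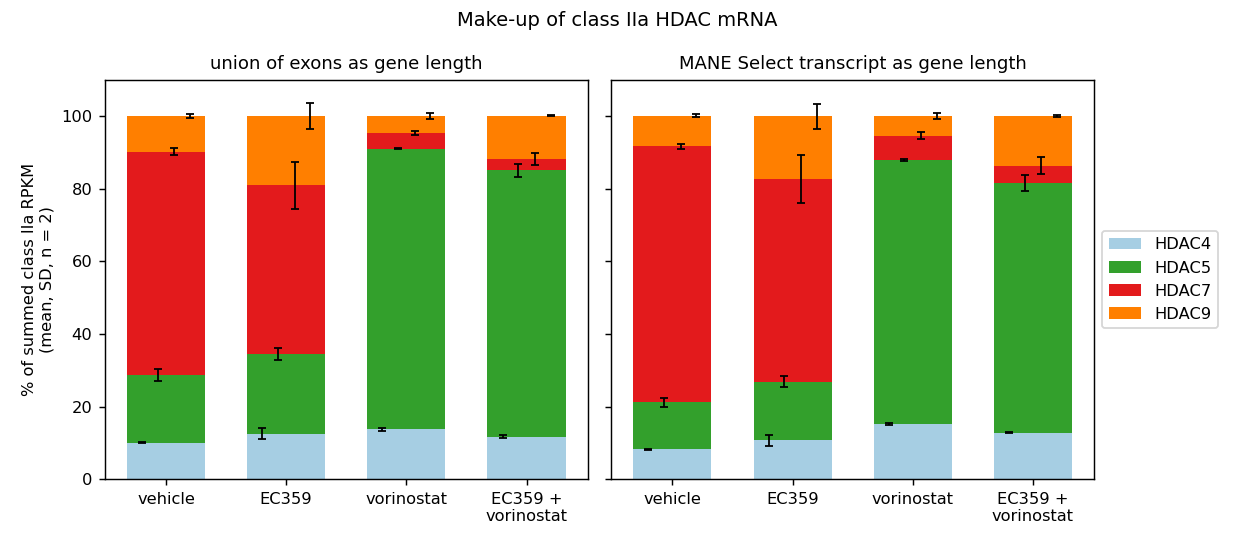
Share of each class IIa gene in the summed RPKM of the class (vertical axis, percent; stacked means of 2 libraries, error bars are the SD of each gene's share drawn at the top of its segment) in the 4 groups, with the union of exons (left) or the MANE Select transcript (right) as gene length. HDAC7 is the largest segment in vehicle and EC359 and HDAC5 the largest in vorinostat and the combination, with both lengths.

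The proteins that HDACs work with were described in 12 lists of 95 genes, of which 92 were tested. In vorinostat against vehicle 20 of these rose and 32 fell. The NuRD complex, a nucleosome remodeler that holds HDAC1 and HDAC2, had 0 genes higher and 8 lower of 13 tested, with a median log2 fold change of -0.77, beside 0.03 over all genes and 26.2% higher and 25.9% lower there. Its remodeler CHD3 fell from 349 ± 20.4 to 61.5 ± 0.852 CPM (SD, n = 2, log2 fold change -2.50 ± 0.11, adjusted p = 3.4e-07), and the subunits MTA1 (-1.88) and MTA3 (-1.81) fell with it. With any 1 vehicle or vorinostat library left out, 7 NuRD genes were lower. The SIN3 complex, the other main carrier of HDAC1 and HDAC2, was mixed, with 2 higher and 4 lower of 15 and a median of 0.17. SAP18 rose from 227 ± 12.3 to 1020 ± 2.28 CPM (2.16 ± 0.08, adjusted p = 2.1e-07) and ING1, a reader of methylated histone H3, rose as well (1.24). Also counted among the 8 lower NuRD genes, the histone chaperones RBBP4 (-1.21) and RBBP7 (-0.41) were among the 4 lower genes of the SIN3 list. The lower count of this list was 2 without either vehicle library and 1 without either vorinostat library, and 5 genes were higher without either EC359 library. With only vehicle and vorinostat in the fit, 7 genes of the SIN3 list were higher and 5 lower, so the balance of this list depends on the fit.

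The CoREST complex, which pairs HDAC1 and HDAC2 with the demethylase KDM1A, had 3 genes higher and 2 lower of 7, with a median of -0.10. RCOR2 rose from a low level (1.05 ± 0.424 to 5.08 ± 1.18 CPM, log2 fold change 2.26). With any 1 library of vehicle or vorinostat left out 1 gene was lower, and 1 was higher without vehicle library 1 or vorinostat library 1. In the NCOR and SMRT complex, the home of HDAC3, 1 gene rose and 3 fell of 5, with a median of -0.71. NCOR1, the scaffold that activates HDAC3, fell from 267 ± 23.2 to 125 ± 1.51 CPM (-1.10 ± 0.16, adjusted p = 0.00033) while HDAC3 rose, and the subunit TBL1XR1 fell (-1.19). GPS2 rose (1.35, adjusted p = 0.0075), but it did not pass when any 1 library of vehicle, vorinostat or the combination was left out (adjusted p between 0.015 and 0.058), where the list stood at 0 higher and 2 lower. Of the MiDAC and MIER complexes, 0 rose and 1 fell of 5 (MIER3, -1.28), with a median of 0.19, and 2 rose with only vehicle and vorinostat in the fit.

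Partners of the class IIa enzymes moved in both directions. Of the MEF2 factors, MEF2A and MEF2D were tested, with a median of 0.28, and MEF2D rose (52.7 ± 2.82 to 105 ± 0.392 CPM), but 0 passed without vehicle library 2 and 1 passed as lower without either EC359 library or with only vehicle and vorinostat in the fit. Of the kinases that phosphorylate class IIa HDACs, 2 rose and 2 fell of 8 tested, with a median of 0.02. PRKD2, a protein kinase D, rose (1.20) and CAMK2D fell (-1.59). Without vorinostat library 1, 1 kinase fell, and 3 rose and 3 fell without either EC359 library. Of the 14-3-3 proteins, which hold phosphorylated class IIa HDACs in the cytoplasm, 2 rose and 2 fell of 7 (median 0.23). YWHAG rose from 333 ± 4.1 to 957 ± 5.78 CPM (1.53), and SFN rose from a low level (0.376 ± 0.0028 to 2.75 ± 0.107 CPM, 2.85). With any 1 library of vehicle or vorinostat left out 1 gene of this list fell, and 4 rose without either EC359 library or with only vehicle and vorinostat in the fit.

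Of the HDAC6 substrates and partners, 2 rose and 1 fell of 6 (median 0.08). SQSTM1, the autophagy receptor p62, rose (1.09), and cortactin (CTTN) fell from 251 ± 1.08 to 124 ± 2.17 CPM (-1.02). In EC359 against vehicle SQSTM1 was the 1 gene past the test of the 92 tested in the 12 lists, beside 3.81% higher and 4.01% lower over all genes. The cohesin list, around the HDAC8 substrate SMC3, had 0 genes higher and 5 lower of 7, with a median of -0.71. STAG2, a cohesin subunit, fell from 308 ± 5.91 to 90.2 ± 2.5 CPM (-1.77 ± 0.09, adjusted p = 5.9e-07). The lower count was 3 without vehicle library 1. These were changes of the transcripts, and the acetylation of the substrates was not measured in these libraries.

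The NAD-dependent deacetylases, the sirtuins, which vorinostat does not inhibit, had 5 genes higher and 1 lower of 7, with a median of 0.79. SIRT7 rose from 15.8 ± 0.879 to 39.5 ± 2.23 CPM (1.33) and SIRT2 from 71.5 ± 2.56 to 144 ± 1.52 CPM (1.01). The mitochondrial SIRT4 rose from a low level (0.821 ± 0.293 to 6.18 ± 1.18 CPM, 2.91), whereas SIRT5, also mitochondrial, fell (-1.09). The higher count was 3 without vehicle library 1 or either vorinostat library. The lysine acetyltransferases had 2 genes higher and 5 lower of 12 (median -0.27). NCOA3 rose (1.22), while CREBBP, KAT6B and KAT7 fell (-1.32, -1.26 and -1.20). KAT6B did not pass without vehicle library 1 (adjusted p = 0.015), vorinostat library 1 (0.011) or vorinostat library 2 (0.016). With any 1 of these 3 libraries left out the list had 1 gene higher and 3 lower, and without vehicle library 2 it had 1 higher and 4 lower.

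**Figure D4:**
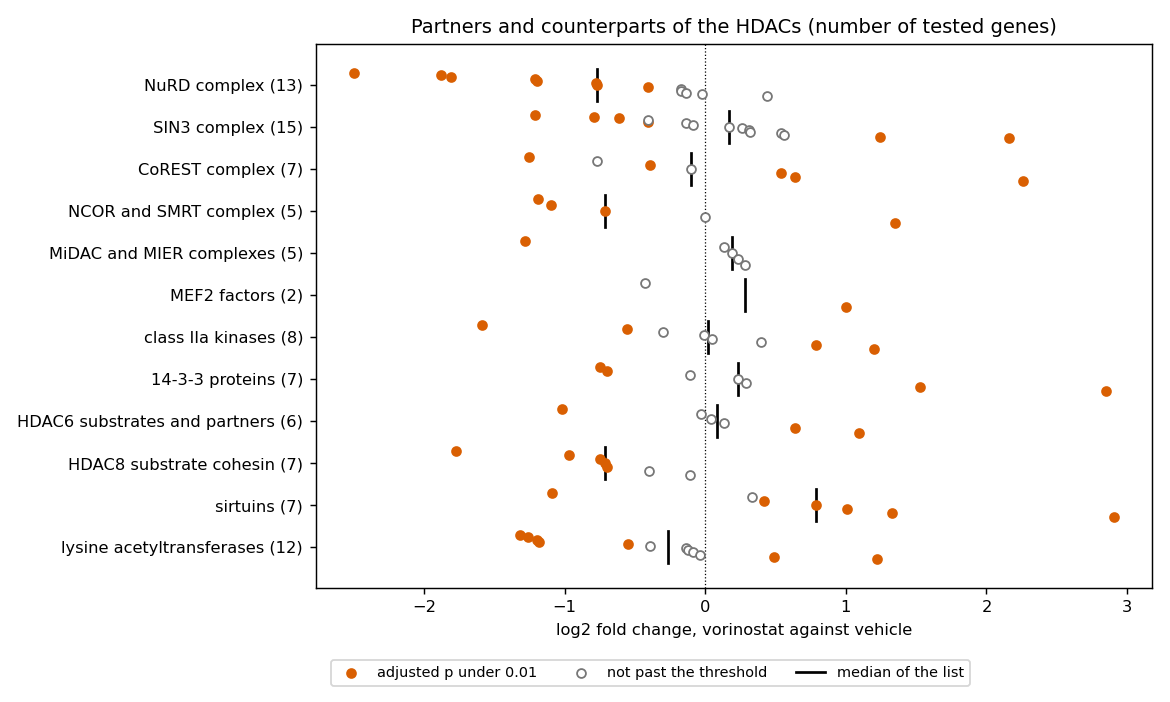
Log2 fold change in vorinostat against vehicle (horizontal axis) of each tested gene in 12 lists of HDAC partners and counterparts (rows, with the number tested); filled points passed an adjusted p under 0.01 and bars are list medians. The NuRD and cohesin lists have medians of -0.77 and -0.71 and no filled point above 0, and the sirtuins have a median of 0.79.

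The genes most like each called HDAC gene were sought among the 9753 tested genes with an average log2 CPM of at least 3, by Pearson's r of log2 CPM over the 8 libraries. For HDAC7 they were MICALL1 and TK2 (r = 0.998 for both) and FBXL19 (0.997), and 1933 genes had an r over 0.9. For HDAC3 they were FITM2 (0.999), COX7A2L and BSG (0.998 for both), with 1550 genes over 0.9, and for HDAC5 DFNB31 (0.998), TOR1AIP2 and SLC19A3 (0.997 for both), with 1314. The pattern of HDAC9, higher with EC359 and lower with vorinostat, was shared by fewer genes. TBC1D15 (0.993), SURF6 (0.992) and GATA6 (0.989) were nearest and 306 genes exceeded 0.9. The 8 points of each correlation are 4 groups of 2 libraries, and r follows mostly the largest differences among the group means. For HDAC3, HDAC5 and HDAC7 these lay between the groups with and without vorinostat. A high r there need not mean that all 4 group means follow the same order.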

How the data were processed

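RNA of 8 libraries of BT-549 cells was sequenced, 2 for each of 4 groups given by the labels. Per the labels and the study's methods, the authors aligned 50 bp single-end reads to hg19 with TopHat2 2.0.8b (version from the submitters' processing notes) and counted them with HTSeq on genes of RefSeq. The authors deposited raw read counts per gene, and the version and strand setting of HTSeq are not given in the sources used here. Alignments that HTSeq put on no gene or on several genes were left out. Together they made up 11.9% to 14.9% of these alignments and those on genes. Those on several genes alone made up 0.649% to 0.85%.

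Genes were kept with filterByExpr of edgeR 4.0.16 (R 4.3.3), scaled by TMM and fitted with 1 mean per group. Each comparison used the quasi-likelihood test with Benjamini-Hochberg adjustment over 13694 genes. The SE of a log2 fold change is its size over the root of the F statistic. CPM are TMM-normalized, and RPKM divide them by exon lengths from GENCODE (GRCh37, whose coordinates hg19 uses), where 91.8% of the symbols matched. The alternatives were RLE and total-count scaling, DESeq2 1.42.0, other filters on low counts, fits on the groups compared, a replicate block, an adjusted p under 0.05, the longest transcript as length and each library left out. The threshold of 0.05 was applied to the main fit, so it could neither remove a pass nor change a fold. The crossed block and the MANE Select length were chosen after seeing the data. A group with 1 library left was taken to vary like the others. The procedure was tested on simulated data.

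The 10 genes, the partner lists and the thresholds were chosen with earlier results of these data known. The genes named are the 10 members, up to 3 called genes per direction in each partner list by their change in vorinostat against vehicle, the 3 genes most like each called member, the neighbours of HDAC7, and genes that a count of 5 or fewer rests on, chosen after their values were seen; 1 gene that the rule names is not reported here. Figures were drawn with matplotlib in Python. Proteins and reads were not analysed here.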

Additional observations from a re-analysis of the deposited data

Results flagged for a closer look

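Of the 92 partner genes tested, 2 showed an effect of EC359 that differed between cells with and without vorinostat, by the interaction test in edgeR at an adjusted p under 0.01. Over all genes 1.62% passed as higher and 0.482% as lower, so this count is near the background. SIRT1, a nuclear sirtuin, was at 79.6 ± 2.35 CPM (SD, n = 2) in vehicle, 84.4 ± 2.35 in EC359, 107 ± 0.847 in vorinostat and 411 ± 22 in the combination. Its interaction was 1.86 ± 0.12 on the log2 scale (SE, adjusted p = 0.00012), and it passed in all 16 alternatives, with adjusted p-values up to 0.0033. The addition of EC359 to vorinostat raised SIRT1 by 1.95 on the log2 scale (adjusted p = 1.6e-06), whereas EC359 alone gave 0.08 (adjusted p = 0.55). SQSTM1, the autophagy receptor, was at 363 ± 5.7 CPM in vehicle, 659 ± 5.81 in EC359, 770 ± 0.891 in vorinostat and 2130 ± 24.8 in the combination. Its interaction was 0.61 ± 0.10 (adjusted p = 0.0092). It did not pass when any 1 library of vehicle, vorinostat or the combination was left out (adjusted p between 0.059 and 0.12), nor with the replicate block (0.61, adjusted p = 0.022), RLE scaling (0.013), total-count scaling (0.018) or no filter on low counts (0.010), which makes 10 of the 16 alternatives.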

How the results depend on the processing

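The 4 vorinostat calls held in every alternative. For EC359 against vehicle the count of called members was 0 with only the groups compared and 0 to 1 with each library left out, and the count past the test was 3 in DESeq2, 0 with only the groups compared, 2 with the crossed block, 4 at an adjusted p under 0.05 and 0 to 4 with a library left out. At 0.05, 8 members passed in the combination against vehicle and 1 in the interaction. With a library left out these counts were 3 to 8 and 0 to 1, and the count past the test in the combination against vorinostat was 1 to 5. With MANE Select lengths the share of HDAC7 in class IIa was 70.4%, 55.9%, 6.75% and 4.74% in vehicle, EC359, vorinostat and the combination, and class I held 77.9%, 88.3% and 85.8% in vehicle, vorinostat and the combination, with 88.7% and 85.6% in the last 2 by longest transcript. The cause of these shifts was not tested.

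Changes of sign occurred where no test was passed. Total-count scaling gave 0.00 for HDAC3 in EC359, and the filter of 1 CPM in all libraries gave 0.08 for HDAC4 and 0.02 for HDAC8 in the combination against EC359. With a library left out the values ran from -0.04 to 0.08 for HDAC3 in EC359, -0.03 to 0.01 for HDAC4 and -0.07 to 0.13 for HDAC11 in vorinostat, and -0.05 to 0.17 for HDAC2 in the combination against vehicle. Against vorinostat they ran from -0.48 to 0.58 for HDAC7 and -0.12 to 0.03 for HDAC8, and against EC359 from -0.29 to 0.04 for HDAC2, -0.10 to 0.02 for HDAC4 and -0.11 to 0.19 for HDAC6. In the interaction they ran from -0.10 to 0.02 for HDAC4, -0.29 to 0.02 for HDAC6 and -0.26 to 0.80 for HDAC7. Of the values recomputed for single genes, 1407 kept their direction and their side of the threshold, 58 no longer passed, 43 newly passed and 24 changed sign.

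Same-numbered libraries shared no origin in the labels, and their deviations correlated between -0.173 and 0.231, so the numbers were not taken as pairs. With the replicate block the members past the test were 1, 5, 4, 3 and 5 in the 5 comparisons. HDAC4 in the combination against vehicle (0.46, adjusted p = 0.014) and HDAC1 against vorinostat (-0.39, adjusted p = 0.015) no longer passed. A block with crossed combination numbers gave 2, 5, 5, 4 and 6 members. Over all genes the interaction split was 222 higher to 66 lower, 188 to 86 with total counts and 429 to 256 in DESeq2, with 189 genes in all under the block and 477 under the crossed block, and the genes past the test in EC359 against vehicle numbered 522 higher and 549 lower, 863 in all with the block and 1411 with the crossed block. The small changes of HDAC2 and HDAC8 in vorinostat against vehicle did not pass in the main fit. With only those 2 groups in the fit both passed (0.30, adjusted p = 0.00026, and -0.32, adjusted p = 0.0053). Whether such small changes passed thus depended on the libraries in the fit.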
